A study of Mus musculus with 6 samples.

Results

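The 45 genes described here act in the DNA damage response and in DNA repair: checkpoint kinases, sensors of broken DNA, the p53 circuit, and the enzymes and scaffolds of the main repair routes. Their accessible sites were the ATAC-seq peaks that overlap a gene's body or, where a peak overlaps no protein-coding gene, that have the gene as the nearest one within 100 kb. Peaks were assigned by position only, which gave 206 of the 97124 peaks in the series, at least 1 for each of the 45 genes. The genes themselves were chosen with earlier results of these data known. The number per gene ran from 1 (for 6 genes) to 21 at Parp1, with a median of 3. Of the 206 peaks, 189 passed the filter on weak signal and were tested, and 23 also overlap another protein-coding gene. In RefSeq, H2afx is listed as H2ax.

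The 6 samples are B-cells taken from the bone marrow of mice that the labels call PEtg, without spelling out its transgene, its promoter or the animals' age. ATAC-seq reads open chromatin through a transposase that cuts it and inserts adapters. H2B-GFP is a fluorescent histone that is diluted by division: cells with high H2B-GFP are labelled quiescent (samples 1 to 3) and cells with low H2B-GFP proliferating (samples 1 to 3). All 6 carry both the PEtg background and the reporter, and no sample without them was analysed here. The labels do not say whether each sample is its own animal. The p-values therefore reflect sample-to-sample spread here, and part or all of it may be technical.

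Cells that meet broken or blocked DNA signal through the kinases ATM and ATR to CHK2 and CHK1 and to the transcription factor p53, whose targets slow the cycle or start repair. Breaks are rejoined directly by end joining, or copied from the sister strand by homologous recombination, which works mainly after replication. Developing B-cells in the marrow also cut their own antigen receptor genes and use end joining to close them, so these factors serve lymphocyte development as well as repair.

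Depth differed more between samples than the deposited values show. The reads in peaks estimated behind the deposited signal were fewest in proliferating sample 1 (8052315) and most in proliferating sample 3 (48825836), while the signal itself sums to between 20904407 and 21518630. Every one of the 8 B-cell markers had a peak within 1 kb of a gene end, with a summed signal of 18235 to 20828 in quiescent and 20016 to 24033 in proliferating samples. Of 8 myeloid markers, 3 had such a peak (Mpo, Elane, Csf3r, S100a8 and Cebpe had none), and their summed signal was 680 to 862 in quiescent and 408 to 492 in proliferating samples. For T and NK markers (4 of 8, without Cd3e, Cd3g, Cd4 and Ncr1) the sums were 3144 to 3560 and 2848 to 3033, and for erythroid markers (3 of 6, without Klf1, Epor and Alas2) 1583 to 1950 and 1481 to 1775. No marker peak was at 0 in any sample. The part of these shifts in the results that follow was not tested. In bulk samples, a change in the share of a cell type cannot be told from a change within it.

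Promoter sequences are shown for 4 members, from the lowest start peak value to a level one. Start peaks with higher values, up to Ercc2 (0.53), are not represented. The 4 are Fanci and Rad54l, whose start peaks fell in quiescent cells, Ccng1 and Dclre1c. Ccng1 is a p53 target whose start peak came close to the threshold. The start peak of Dclre1c is among the strongest of the set and was level on deposited values. Each sequence runs 5′ to 3′ on the gene's strand, from 250 bases before to 50 after the RefSeq start (GRCm38.p6, the assembly behind mm10). Capitals mark matches on either strand to the CCAAT box (CCAAT), an ETS site (CCGGAAG), the E2F sites TTTCCCGC and TTTGGCGC, the cell cycle homology region (TTTGAA) and the p53 half-site.
Fanci (chr7:79392088-79392387, + strand): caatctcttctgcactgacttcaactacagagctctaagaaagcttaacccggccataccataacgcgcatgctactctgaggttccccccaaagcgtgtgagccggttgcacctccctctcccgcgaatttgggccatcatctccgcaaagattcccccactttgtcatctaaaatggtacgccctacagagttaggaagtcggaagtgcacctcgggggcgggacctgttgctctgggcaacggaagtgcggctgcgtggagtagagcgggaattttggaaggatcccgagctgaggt
Rad54l (chr4:116123640-116123939, - strand): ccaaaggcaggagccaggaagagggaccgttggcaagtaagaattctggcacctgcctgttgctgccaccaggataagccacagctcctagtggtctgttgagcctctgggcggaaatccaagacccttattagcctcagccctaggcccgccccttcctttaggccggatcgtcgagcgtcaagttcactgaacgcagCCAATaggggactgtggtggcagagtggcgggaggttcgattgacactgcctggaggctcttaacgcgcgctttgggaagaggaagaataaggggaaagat
Ccng1 (chr11:40755237-40755536, - strand): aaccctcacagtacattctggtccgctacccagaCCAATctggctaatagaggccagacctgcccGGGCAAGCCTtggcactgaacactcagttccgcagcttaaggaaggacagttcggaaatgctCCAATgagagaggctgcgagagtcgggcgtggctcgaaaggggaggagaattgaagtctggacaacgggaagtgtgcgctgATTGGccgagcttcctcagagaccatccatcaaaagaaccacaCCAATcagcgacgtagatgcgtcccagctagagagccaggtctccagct
Dclre1c (chr2:3423881-3424180, + strand): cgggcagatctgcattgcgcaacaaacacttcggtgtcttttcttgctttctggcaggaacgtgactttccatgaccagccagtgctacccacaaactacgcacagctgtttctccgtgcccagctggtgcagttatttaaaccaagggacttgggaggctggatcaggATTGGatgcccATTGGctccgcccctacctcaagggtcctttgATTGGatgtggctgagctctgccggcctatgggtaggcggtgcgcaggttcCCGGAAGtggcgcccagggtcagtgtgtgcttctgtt

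The Fanci window held none of these letters, Rad54l 1 CCAAT box, Ccng1 4 CCAAT boxes and a p53 half-site, and Dclre1c 3 CCAAT boxes and an ETS site. Of the 37 members with a promoter in the RefSeq table, 23 held a CCAAT box (62.2%, against 38.2% of 21263 promoters of protein-coding genes). An ETS site stood in 10 (27%, against 11.6%), TTTCCCGC in 5 (13.5%, against 1.41%), TTTGGCGC in 1 (2.7%, against 0.635%) and TTTGAA in 1 (2.7%, against 16%). A TATA box (TATAAA) was found in 4 (10.8%, against 12.6%). The p53 half-site was matched in 5 (13.5%, against 7.37%), namely Ccng1, Gadd45a, Mdm2, Trp53 and Fanca. The members' promoters held a median of 21 CG dinucleotides, against 13 in all, and a G and C content of 58.3%, against 56.3%. These are matches of letters in a short window and not measured binding sites.

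In quiescent cells 5 peaks of these genes rose and 9 fell (limma, adjusted p under 0.05 over all tested peaks). Peaks rose at Parp1 (2), Xpc, Xrcc5 and Gadd45a, and fell at Xrcc4 (3), Xrcc1 (2), Rad54l, Fanci, Ercc1 and Gadd45a. By gene, 3 members had rises alone, 5 had falls alone, Gadd45a had both (1 gene) and 36 had neither. The 14 peaks are 7.41% of the 189 tested, against 6.72% of all 87411 tested peaks (4.01% higher and 2.72% lower), so the count is near the background. The groups did not overlap at 58 of the 189 peaks, 30.7% against a background of 30.4%. Values below 0 made up 110 of the 189 (58.2%, against 50.7% of all tested peaks). The median log2 fold change was -0.09 over the members' peaks and -0.01 over all tested peaks.

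**Figure D1:**
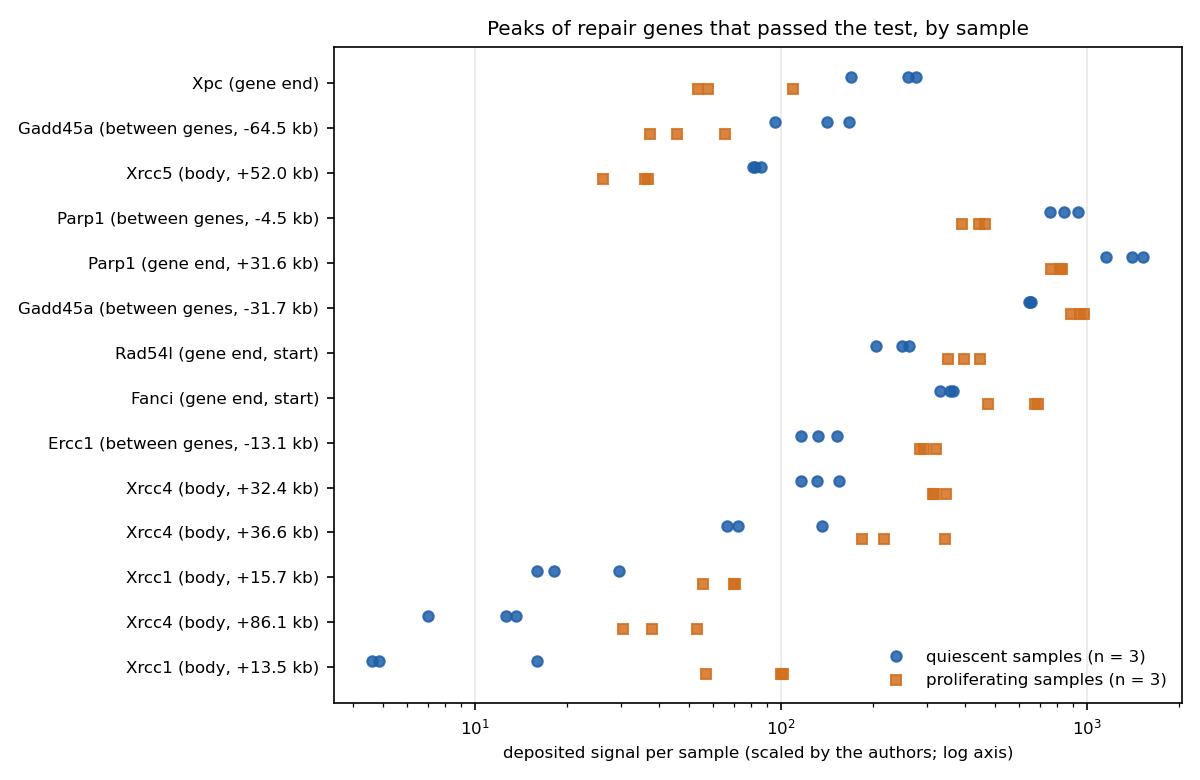
Deposited signal in each of the 6 samples (horizontal log axis, scaled by the authors) at the 14 peaks that passed the test, ordered by log2 fold change, with the gene, the position and the distance from the gene start in kb where the start is known. Circles are quiescent and squares proliferating samples (n = 3 each), and at each of the 14 peaks the groups do not overlap.

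With the replicate number as a block, 20 of the members' peaks were higher and 22 lower (22.2%, against 18.3% of all tested peaks). The background was 10.2% higher and 8.14% lower. All 14 peaks were among these 42. The labels do not pair the samples, and the block was chosen from these same data. Deviations of same-numbered samples correlated (r = 0.43, 0.285 and 0.21), but so did those of quiescent sample 2 and proliferating sample 3 (r = 0.22). Peaks that passed only with the block rest on this uncertain pairing. With 1 library left out fewer peaks passed in most fits. Without quiescent sample 3 limma called 0 of all 87411 peaks (16512 had an unadjusted p under 0.05), so a count of 0 for the members there says nothing about them in particular. Without quiescent sample 2 it called 79 higher and 82 lower peaks in the whole table and 0 of the members' (36 with an unadjusted p under 0.05). Without proliferating sample 2 the Parp1 peak 4512 bp from the gene passed alone, and without proliferating sample 3 a single Xrcc4 peak did. Leaving out quiescent sample 1 gave 11 higher and 9 lower peaks, and leaving out proliferating sample 1 gave 11 of each. The log2 fold changes of the 14 peaks kept their sign and much of their size in all 6 of these fits, for example -0.97 to -0.69 at Fanci, 0.89 to 1.04 at the upstream Parp1 peak and -3.87 to -3.08 at the first Xrcc1 peak.

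**Figure D2:**
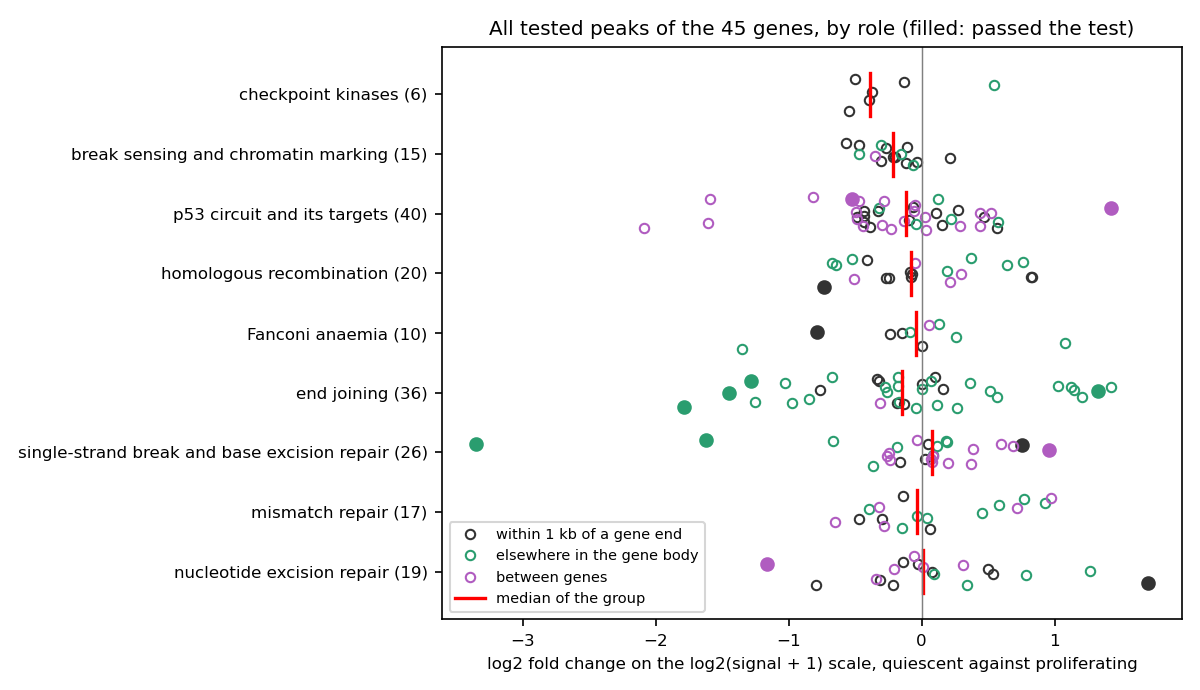
Log2 fold change of all 189 tested peaks (horizontal axis, on the log2(signal + 1) scale, quiescent against proliferating), by role of the gene, with the number of tested peaks in brackets. Colours give the position, filled points passed the test and red bars are group medians, which run from -0.39 for checkpoint kinases to 0.08 for single-strand break and base excision repair.

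At the starts of repair genes the deposited signal leaned lower in quiescent cells, and no start peak rose. Of the 45 peaks at a start or, for 8 genes, an end, 20 overlap another gene too, so their signal cannot be given to the repair gene alone. A start site was available for 37 members, and each of the 37 had a peak there. Of these start peaks 2 fell (5.41%, Fanci and Rad54l) and 0 rose (9 and 1 at an unadjusted p under 0.05). Among all 8425 tested peaks at gene starts 1.22% were lower and 0.7% higher. This background is not matched for strength. Only the strongest start peak of each member was taken, and their median signal was 485, against 211 for all peaks at gene starts. Without limma's intensity trend neither passed (adjusted p = 0.0891 for Fanci and 0.0873 for Rad54l), and 4 of the 37 had an unadjusted p under 0.05, all lower. Below 0 lay 28 of the 37, or 75.7%, against 65% of all start peaks, and the median was -0.16 against -0.09. The groups stood apart with quiescent samples lower at 13 start peaks (background 18.5%) and with quiescent samples higher at 1 (background 6.04%). Together these were 37.8% of the 37, against 24.6%. Summed over the 37 peaks, the signal was 21972, 22946 and 22527 in quiescent samples 1 to 3 and 23232, 25904 and 27326 in proliferating samples 1 to 3, so proliferating sample 1 lay nearest to the quiescent samples.

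This lean depended on the scaling. Where recovered reads were scaled by the median of ratios, 16 of the 37 start peaks lay below 0 and their median was 0.01, against 0.01 over all tested peaks, and limma-voom then called 1 higher (Dclre1c) and 2 lower. With reads scaled to their total 32 of the 37 lay below 0 and 5 were called lower, with a median of -0.25 against a shift of -0.26 over all tested peaks. On reads with the authors' scaling 30 of the 37 lay below 0, 5 were called lower and the median was -0.21. Relative to all peaks, the start peaks thus lay at -0.15 on deposited values, -0.19 on reads with the authors' scaling, 0.003 with total scaling and -0.003 with the median of ratios. With the replicate block 7 start peaks were lower (18.9%) and 0 higher (backgrounds 4.87% and 2.33%): Fanci, Rad54l, Trp53, Pms2, Ccng1, Chek2 and Lig4.

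**Figure D3:**
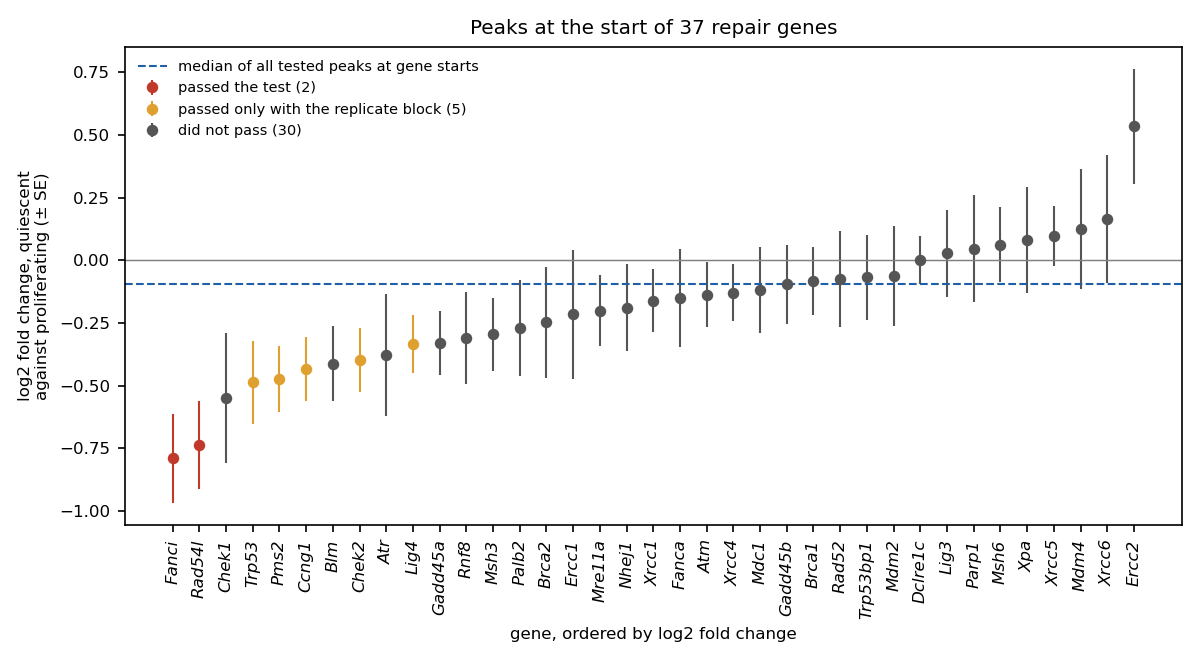
Log2 fold change (± SE, vertical axis, on the log2(signal + 1) scale) of the peak at the start of each of 37 genes, ordered from Fanci (-0.79) to Ercc2 (0.53). Red points passed the test, orange points passed only with the replicate block, and the dashed line is the median of all tested peaks at gene starts (-0.09).

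Among the checkpoint kinases 0 of 6 tested peaks passed in limma, and all 4 start peaks had values below 0, though Atm was above 0 (0.13) with the median of ratios. At an unadjusted p under 0.05 there were 1 higher and 1 lower. Limma-voom on recovered reads called 1 higher and 0 lower under each of 3 scalings. Atm, the kinase activated by double-strand breaks, shares its start peak with Npat (chr9:53535304-53537236). The signal there was 508, 562 and 539 in quiescent samples 1 to 3 and 588, 565 and 615 in proliferating samples 1 to 3 (log2 fold change -0.14 ± 0.13 SE, adjusted p = 0.572). The groups just fail to touch and differ by little. At the start of Atr, the kinase of stalled replication forks, the values were 105, 103 and 67.7 against 109, 135 and 110 (-0.38 ± 0.24, adjusted p = 0.386). Chek1, the effector of ATR, had 201, 220 and 213 against 202, 350 and 419 at its only peak (chr9:36725851-36727348, -0.55 ± 0.26, adjusted p = 0.235). Proliferating sample 1 lay inside the quiescent range there, and the other 2 proliferating samples lay well above it. Without proliferating sample 1 the Chek1 peak was lower (-0.85, adjusted p = 0.0183), and without proliferating sample 3 its value was -0.33 (adjusted p = 0.561). Chek2, the effector of ATM, had 802, 884 and 867 against 1045, 1059 and 1270 at a start peak shared with Hscb (-0.40 ± 0.13, adjusted p = 0.0984, and 0.0299 with the block). For this peak limma-voom with the median of ratios gave -0.09 (adjusted p = 0.635). A second Chek2 peak, inside the gene and chosen after its values were seen, lay above 0 (0.55) and was higher with the block.

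Genes that sense breaks and mark the chromatin around them had 0 peaks past the threshold among 15 tested. Of the 15, 14 lay below 0 (93.3%, median -0.22), against 50.7% of all tested peaks and 60.5% of those at gene ends. Limma gave 1 with an unadjusted p under 0.05, and limma-voom called 0 under each of 3 scalings. Mre11a, Rad50 and Nbn form the complex that binds broken ends, H2afx is the histone variant phosphorylated beside a break, Mdc1 binds that mark, and Rnf8 and Trp53bp1 act downstream of it. At Rnf8, a ubiquitin ligase, the start peak had 232, 241 and 265 in quiescent and 248, 328 and 348 in proliferating samples (-0.31 ± 0.18, adjusted p = 0.343). The strongest peak within 1 kb of an end of H2afx had 667, 701 and 647 against 668, 816 and 873 (-0.22 ± 0.14, adjusted p = 0.388). At both genes proliferating sample 1 fell within the quiescent range. With recovered reads scaled by the median of ratios, the value was 0.04 at H2afx and -0.21 at Rnf8.

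The p53 circuit had 1 higher and 1 lower peak among 40 tested (5%, against 6.72% of all tested peaks). Both lie between genes on the upstream side of Gadd45a, a stress-induced growth arrest gene. The weak distal one (chr6:67101883-67102809, 64476 bp from the gene) had a signal of 95.7, 142 and 166 in quiescent samples 1 to 3 and 37.2, 45.7 and 65.4 in proliferating samples 1 to 3. It rose, with the lowest quiescent value above the highest proliferating one (1.43 ± 0.30, adjusted p = 0.0282). It rested on 14 recovered reads in proliferating sample 1 and on 77 to 175 in the other 5 libraries. With reads scaled to their total it did not pass (0.95, adjusted p = 0.0749). The stronger peak at 31683 bp (chr6:67069090-67070955) had 643, 655 and 650 against 946, 882 and 979 and fell (-0.52 ± 0.12, adjusted p = 0.0358). With the median of ratios it was -0.22 and did not pass (adjusted p = 0.271). Its quiescent values lay close together and below every proliferating value. The strongest Gadd45a peak, 18059 bp from the gene, had 1121, 1164 and 1056 against 1172, 1272 and 1225 and did not pass (-0.14 ± 0.11, adjusted p = 0.501).

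Trp53 encodes p53, and its start peak, shared with Wrap53, was wide (chr11:69578744-69582072). The signal was 718, 853 and 819 in quiescent and 887, 1197 and 1300 in proliferating samples (-0.49 ± 0.16, adjusted p = 0.11, and 0.0143 with the block). Inside the gene body a second peak had the opposite sign (chr11:69585429-69586441, 0.58, adjusted p = 0.0591, and 0.0181 with the block), chosen after its values were seen. Ccng1, a p53 target that encodes cyclin G1, had 587, 626 and 661 against 785, 865 and 881 at its start (-0.43 ± 0.13, adjusted p = 0.0762, and 0.0232 with the block). The groups stood apart at Trp53 and Ccng1 with every quiescent sample lower. Mdm2, the ubiquitin ligase that degrades p53, had 404, 341 and 326 against 283, 442 and 407 at its start (-0.06 ± 0.20, adjusted p = 0.884), with the groups interleaved. Its relative Mdm4 had 800, 956 and 1022 against 634, 877 and 886 at its strongest peak, inside the gene (0.22 ± 0.17, adjusted p = 0.465). Gadd45b, the other member of the circuit, had 7 tested peaks and none that passed.

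In homologous recombination 1 of 20 tested peaks passed (5%, against 6.72% of all tested peaks). It lies at the start of Rad54l, a motor protein of strand exchange (chr4:116122886-116124418). The signal was 204, 248 and 262 in quiescent samples 1 to 3 and 350, 395 and 445 in proliferating samples 1 to 3, with a gap between the groups. It fell by 0.74 on the log2 scale (SE 0.17, adjusted p = 0.0408), and this was the only peak of the gene. Brca1, which directs broken ends into recombination, had 1867, 1805 and 1931 against 1640, 2016 and 2334 at a strong start peak shared with Nbr1 (-0.08 ± 0.14, adjusted p = 0.762). Brca2, which acts during strand exchange, had 146, 213 and 145 against 166, 211 and 215 (-0.25 ± 0.22, adjusted p = 0.538). At Brca1 and Brca2 the groups overlapped. Blm, a helicase that resolves recombination intermediates, had 369, 459 and 424 against 576, 514 and 571 at its start (-0.41 ± 0.15, adjusted p = 0.129). The strongest peak of Rad52, 15227 bp inside the gene, leaned the other way with 1001, 1144 and 1367 against 912, 940 and 837 (0.37 ± 0.14, adjusted p = 0.148). On recovered reads limma-voom called it higher with the median of ratios (0.72, adjusted p = 0.0114) and with total scaling (0.46, adjusted p = 0.0493). With the block 2 peaks of this group were higher. One lies at the far end of Blm (chr7:80455500-80456116), with 216, 303 and 354 against 185, 153 and 145 (0.83 ± 0.22, adjusted p = 0.0593, and 0.0191 with the block). The other lies inside Wrn, a helicase (chr8:33246057-33246409), with 76.1, 156 and 121 against 55.9, 67.2 and 76.7 (0.77 ± 0.30, adjusted p = 0.154, and 0.0436 with the block). Both were chosen after their values were seen, and the groups stood apart at Blm and overlapped at Wrn. Of the 5 tested peaks of Wrn, 4 lay below 0, and the median over the 5 was -0.50.

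Of the Fanconi anaemia genes, which repair crosslinks between strands, Fanci had the peak that fell, and Fanca and Fancd2 had none past the threshold. That was 1 of 10 tested peaks (10%, against 6.72% of all tested peaks). FANCI pairs with FANCD2 in the complex that marks a crosslink. The Fanci start peak also overlaps Rlbp1 (chr7:79391531-79393545). Its signal was 331, 355 and 364 in quiescent samples 1 to 3 and 473, 693 and 677 in proliferating samples 1 to 3, so proliferating sample 1 lay between the quiescent samples and the other 2. It fell by 0.79 on the log2 scale (SE 0.18, adjusted p = 0.0349). A weak peak inside Fanci, chosen after its values were seen, had the opposite sign (chr7:79421811-79422239). It had 33.8, 62.1 and 41.4 against 14.0, 26.4 and 23.1, with no overlap (1.08 ± 0.38, adjusted p = 0.124, and 0.0462 with the block). The strongest Fanci peak, 27539 bp downstream of the start, had 609, 638 and 566 against 846, 589 and 528. There the groups overlapped and the signal was level (-0.09 ± 0.19, adjusted p = 0.82).

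End joining had 1 higher and 3 lower peaks among 36 tested (11.1%, against 6.72% of all tested peaks). With the block it had 6 higher and 9 lower (41.7%, against 18.3%), among them 7 lower at Xrcc4 and 4 higher at Xrcc6. Xrcc4, which holds DNA ligase IV at the break, had 12 tested peaks with a median of -0.76, and 9 of the 12 lay below 0. Its 3 called peaks lie inside the gene, 32390, 36571 and 86095 bp downstream of the start. At the first (chr13:90056483-90057218) the signal was 117, 131 and 154 in quiescent and 315, 346 and 315 in proliferating samples (-1.28 ± 0.18, adjusted p = 0.00943). At the next (chr13:90052340-90053037) it was 136, 72.2 and 66.8 against 343, 217 and 183 (-1.45 ± 0.33, adjusted p = 0.0354), so the samples numbered 1 were the highest of both groups. The last was weak (chr13:90003247-90003513), at 13.6, 7.05 and 12.7 against 53.3, 38.0 and 30.4, with 4 to 87 recovered reads (-1.79 ± 0.42, adjusted p = 0.0393). With the block 7 Xrcc4 peaks were lower and 0 higher. The start peak, shared with Tmem167, had 784, 783 and 803 against 870, 856 and 865 and did not pass (-0.13 ± 0.11, adjusted p = 0.538). Neighbouring peaks share a locus and are not independent.

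Xrcc5 and Xrcc6 encode the Ku heterodimer, which binds broken ends first. Deep in Xrcc5 (chr1:72359452-72359913, 52031 bp downstream of the start) a weak peak had 82.5, 86.3 and 81.3 in quiescent and 36.1, 26.1 and 36.7 in proliferating samples. It rose by 1.33 on the log2 scale (SE 0.26, adjusted p = 0.0222), with 14 recovered reads in proliferating sample 1. No Xrcc6 peak passed without the block, and with it 4 peaks between 2771 and 7043 bp downstream of the start were higher, chosen after their values were seen. The strongest of the 4 (chr15:82021672-82023317) had 471, 1055 and 1244 against 252, 532 and 425 (1.14 ± 0.38, adjusted p = 0.103, and 0.000759 with the block). Quiescent sample 1 overlapped the proliferating samples, yet lay above proliferating sample 1. The strongest Xrcc6 peak, 10219 bp downstream, was among the strongest of all members, with 6365, 7179 and 8365 against 9533, 8186 and 8737 (-0.28 ± 0.11, adjusted p = 0.16). With recovered reads scaled by the median of ratios its value turned to 0.25.

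Lig4, the ligase itself, had 1617, 1544 and 1586 against 1992, 2243 and 1773 at a start peak shared with Abhd13 (-0.33 ± 0.12, adjusted p = 0.119, and 0.0434 with the block). Dclre1c, the nuclease Artemis that opens hairpin ends, had 3005, 2766 and 2714 against 3011, 2677 and 2789 at a start peak shared with Meig1 (0.00 ± 0.10, adjusted p = 0.994), with the groups interleaved. With the median of ratios limma-voom called the Dclre1c peak higher (0.46, adjusted p = 0.0405). Prkdc, the DNA-dependent kinase, and Nhej1, a partner of XRCC4, each had 3 tested peaks and none that passed without the block. With it 1 weak peak inside Prkdc was lower, chosen after its values were seen (chr16:15738615-15739005). It had 38.5, 24.8 and 27.2 against 91.0, 66.1 and 38.1 (-1.02 ± 0.37, adjusted p = 0.131, and 0.0397 with the block), with 1 proliferating sample inside the quiescent range.

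**Figure D4:**
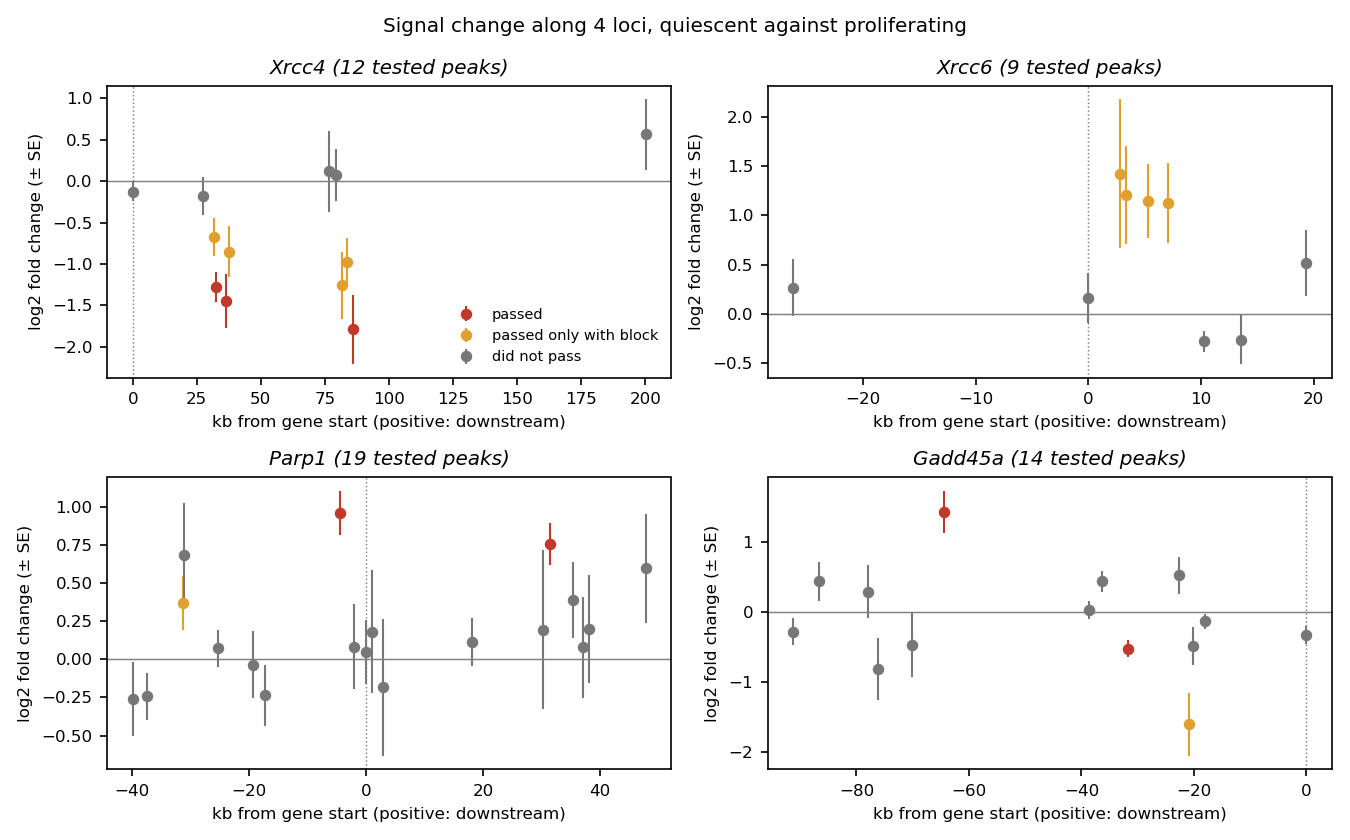
Log2 fold change (± SE, vertical axis, on the log2(signal + 1) scale) of every tested peak of Xrcc4, Xrcc6, Parp1 and Gadd45a against its distance from the gene start in kb (positive values are downstream). Red points passed the test and orange points passed only with the replicate block: in Xrcc4 they lie below 0, in Xrcc6 and Parp1 above 0, and at Gadd45a on both sides.

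Single-strand break and base excision repair had 2 higher and 2 lower peaks among 26 tested (15.4%, against 6.72% of all tested peaks). Both falls are at Xrcc1, with the largest fall of the set among them, and both rises at Parp1. Xrcc1, the scaffold that gathers single-strand break repair enzymes, had 2 weak called peaks 13543 and 15681 bp downstream of its start. The first (chr7:24560242-24560723) had 4.62, 4.88 and 16.0 in quiescent and 56.8, 100 and 102 in proliferating samples (-3.35 ± 0.50, adjusted p = 0.0108). It rests on 5, 3 and 13 recovered reads in quiescent samples 1 to 3 and 22, 172 and 282 in proliferating samples 1 to 3. The second (chr7:24562380-24562943) had 15.9, 18.1 and 29.7 against 55.8, 70.7 and 70.2 (-1.62 ± 0.33, adjusted p = 0.0252). By contrast the start peak of Xrcc1, shared with Pinlyp, was strong and overlapped between groups, at 965, 1059 and 1129 against 1082, 1154 and 1289 (-0.16 ± 0.12, adjusted p = 0.477).

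Parp1 encodes the enzyme that senses nicks and breaks and builds poly(ADP-ribose) on nearby proteins. Of its 19 tested peaks 14 lay above 0. The peak 4512 bp upstream (chr1:180563117-180564379) had 840, 754 and 931 in quiescent samples 1 to 3 and 464, 442 and 389 in proliferating samples 1 to 3. It rose by 0.96 on the log2 scale (SE 0.15, adjusted p = 0.011). The peak at the far end of the gene (chr1:180600443-180602563, 31552 bp downstream of the start) had 1155, 1405 and 1527 against 760, 818 and 825 and rose by 0.76 (SE 0.14, adjusted p = 0.0176). Both are well separated between groups and rest on at least 171 recovered reads in every library. The start peak between them had 227, 264 and 305 against 197, 297 and 285 (0.05 ± 0.21, adjusted p = 0.918). The strongest Parp1 peak, 25389 bp upstream, had 2892, 3343 and 3629 against 2783, 3120 and 3467 (0.07 ± 0.12, adjusted p = 0.759), but limma-voom with the median of ratios called it higher (0.47, adjusted p = 0.0145). At those 2 peaks the groups overlapped. Lig3, the ligase that works with XRCC1, had 1 peak, which did not pass.

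Mismatch repair, which corrects replication errors, had 0 peaks past the threshold among 17 tested. At an unadjusted p under 0.05 there were 4 higher and 1 lower. With the replicate block 3 were higher (2 at Msh3 and 1 at Msh6) and 1 lower (Pms2), or 23.5%, against 18.3% of all tested peaks. Limma-voom called 1 higher and 1 lower with the authors' scaling, 2 and 0 with the median of ratios, and 2 and 2 with total scaling. Pms2, which nicks the new strand, came closest at its start, shared with Aimp2, with 430, 468 and 483 in quiescent and 642, 653 and 619 in proliferating samples (-0.47 ± 0.13, adjusted p = 0.0658, and 0.0242 with the block). Msh6, which recognises mismatched bases, had 633, 642 and 578 against 697, 524 and 564 at its start (0.06 ± 0.15, adjusted p = 0.839). The strongest peak of Msh3, 33633 bp inside the gene, had 737, 800 and 755 against 646, 573 and 465 (0.46 ± 0.15, adjusted p = 0.109, and 0.0344 with the block). Pms2 was thus lower and Msh3 higher in every quiescent sample, while the groups overlapped at Msh6.

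Nucleotide excision repair, which cuts out bulky lesions, had 1 higher and 1 lower peak among 19 tested (10.5%, against 6.72% of all tested peaks). Xpc, which recognises the lesion, had a peak 6 bp from an end of the gene (chr6:91488512-91489299) with 260, 276 and 169 in quiescent samples 1 to 3 and 110, 53.5 and 57.7 in proliferating samples 1 to 3. It rose by 1.71 on the log2 scale (SE 0.32, adjusted p = 0.0195). The strong peak at the opposite end, shared with Lsm3, had 397, 644 and 600 against 441, 605 and 610 and was level (-0.03 ± 0.22, adjusted p = 0.954). Ercc1, part of the nuclease that cuts beside the lesion, has the peak that fell, 12071 bp from the gene (chr7:19331172-19331996). Its signal was 152, 116 and 132 against 293, 285 and 320, with a wide gap between groups (-1.17 ± 0.18, adjusted p = 0.0119). Ercc2, a helicase that opens the DNA around the lesion, had 212, 251 and 181 against 113, 179 and 156 at its start (0.53 ± 0.23, adjusted p = 0.194), the highest value of all 37 start peaks. Ddb2, a sensor of ultraviolet damage and p53 target, had 383, 439 and 411 against 400, 553 and 603 at its strongest peak (-0.32 ± 0.18, adjusted p = 0.327). All 4 tested peaks of Xpa, which holds the repair complex together, lay above 0 and none passed.

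By position, the members' 66 peaks within 1 kb of a gene end had 2 higher and 2 lower calls (6.06%, against 2.79% of all tested peaks there) and a median of -0.15, against -0.08. The 70 tested peaks elsewhere in the gene bodies had 1 higher and 5 lower calls (8.57%, against 7.31%, and median 0.06, against 0.02). The 53 between genes had 2 and 2 (7.55%, against 7.68%, and median -0.05, against 0.01). All 66 peaks at gene ends passed the filter on weak signal, against 70 of 81 in gene bodies and 53 of 59 between genes. The strongest peak of a gene was the one at its start or end for 34 of the 45 members.

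Other genes of these pathways, 95 in all with 459 tested peaks, had 21 higher and 12 lower calls (7.19%, near the same background of 6.72%). Of the 94 with a tested peak, 10 had rises alone, 4 had falls alone, 4 had both and 76 had neither. A peak rose in Polb, the base excision polymerase (495 ± 47.8 in quiescent against 192 ± 12.6 in proliferating samples, SD, n = 3 each, log2 fold change 1.36 ± 0.16 SE, limma adjusted p = 0.00657), and another in Rad17, the loader of the checkpoint clamp (1295 ± 279 against 587 ± 145, 1.15 ± 0.22). Peaks fell at an end of Polh, a polymerase that copies past damage (131 ± 92.0 against 373 ± 92.6, -1.68 ± 0.41), and of Neil3, a glycosylase (183 ± 12.2 against 317 ± 50.3, -0.78 ± 0.18). Polb also had a lower peak at an end of the gene (83.1 ± 11.4 against 156 ± 16.6, -0.90 ± 0.21). At gene starts these genes had 0 higher and 1 lower call among 73 tested peaks, with a median of -0.17.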

How the data were processed

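ATAC-seq signal was analysed in 6 samples, 3 per group, named by their titles. For 97124 shared peaks in mm10, the authors deposited a scaled signal, 1 value in each sample. Alignment and peak tools named in the submitters' processing notes are Bowtie2, SAMtools and MACS2. For versions, settings, counting and scaling, the sources used here give nothing. Members and gene lists were chosen with earlier results of these data known.

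Peaks were matched to protein-coding genes of GRCm38.p6 (RefSeq), and all 45 members matched. Start sites were available for 37, and for the other 8 the strongest peak within 1 kb of a gene end was taken. Distances from a start run from the nearest available start site of the gene, which need not be its outer end. The signal was tested with limma 3.58.1 (R 4.3.3, intensity trend) on log2(value + 1), with a pseudocount of 1, over the 87411 peaks above the lowest 10% by mean (18.5). Adjusted p-values are Benjamini-Hochberg over all of these, with a threshold of 0.05. Fold changes on this scale understate weak peaks. Errors are SE of log2 fold changes or SD of signal. A count test had been planned only for raw counts, which these are not.

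Low values lay on steps, the value of 1 read, that changed with peak strength. Whole reads were estimated in 4 rounds by following each step (Python 3.11.15, numpy 2.4.6), and the share of values of 1 to 1000 reads lying no more than 0.1 from a whole number was 99.0% to 100.0%. They gave limma-voom alternatives with 3 scalings. Limma and the read estimate were tested on simulated data. The number of reads limits precision most in proliferating sample 1, with a median of 27 reads per peak.

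Deviations from group means correlated between same-numbered samples (r = 0.43, 0.285 and 0.21 for numbers 1, 2 and 3, across peaks, which are not independent), against -0.361 to 0.22 between different numbers. The pairing comes from these correlations and not from the labels. The numbers were therefore also fitted as a block.

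Named peaks are, per member, the strongest, the one at the start, and every one past the threshold. Others are said to be chosen after their values were seen. No genome sequence was used, so distal peaks are given without sequence. Some results for other repair genes are not reported here.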

Additional observations from a re-analysis of the deposited data

How the results depend on the processing

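Leaving out 1 library at a time moved the number of members' peaks past the threshold between 0 and 11 higher and between 0 and 11 lower, and for the other repair genes between 0 and 30 higher and 0 and 17 lower. The replicate block gave 20 higher and 22 lower for the members and 44 and 27 for the others. Without the intensity trend the members had 3 and 5, and the others 12 higher. Limma-voom on recovered reads gave 10 and 14 for the members and 33 higher for the others with the authors' scaling, 9 and 23 for the members and 42 lower for the others with total scaling, and 16 higher for the members and 48 higher for the others with the median of ratios. At an adjusted p of 0.1 the members had 11 and 16, and with gene-body peaks alone 2 higher. A pseudocount of 5, no filter and a filter on the lowest 30% left these counts within 1.5 times. Of 13004 peaks called with total scaling 33.8% were higher, against 59.6% of 5876 on deposited values and 71.5% of 12211 with the median of ratios.

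With the median of ratios 16 of the 37 start peaks lay below 0, against 28 on deposited values. Log2 values that turned positive include those at the start or end peaks of H2afx (0.0381), Atm (0.128), Lig4 (0.0771), Xrcc4 (0.19), Brca1 (0.268), Xpc (0.155), Mdm2 (0.0878) and Xrcc1 (0.157). They also include those at the strongest peaks of Xrcc6 (0.248) and Gadd45a (0.208). The Xrcc6 value was 0.00215 with total scaling, and the Parp1 start peak turned to -0.057 with the authors' scaling on reads and -0.164 with total scaling. The cause was not tested. Without 1 library, values crossed 0 at peaks already near it: Brca1 (-0.217 to 0.0378), Dclre1c (-0.0426 to 0.0485), Mdm2 (-0.255 to 0.0651), Msh6 (-0.0223 to 0.182), Xpc (-0.181 to 0.187), and the strongest (-0.00669 to 0.163) and start (-0.14 to 0.156) peaks of Parp1. The 14 called peaks kept their sign under each of these settings. Without the trend 6 of the 14 were not called (Fanci, Rad54l, Xrcc4 at 36571 bp, Parp1 at 31552 bp and both of Gadd45a), 1 of Gadd45a was not with the median of ratios, and the other with total scaling. Beside the peaks named in the results, limma-voom called Msh3 higher with the median of ratios (0.799) and total scaling (0.546). It called Trp53 (-0.577 and -0.505), Pms2 (-0.474 and -0.465) and Ccng1 (-0.462 and -0.418) lower with the authors' and total scaling. With the median of ratios it called none of them lower. Trp53 was then -0.226 (adjusted p = 0.299), Pms2 -0.202 (0.339) and Ccng1 -0.151 (0.437). Without proliferating sample 1 Msh3 (0.564), Ccng1 (-0.483) and Trp53 (-0.65) were called.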
